A study of Mus musculus with 18 samples.

Results

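miR-219 and miR-338 are the microRNAs best known from oligodendrocytes, the cells that wrap axons in myelin. They were followed here in the hippocampus and cerebellum of mice aged 1 month, when myelin is being laid down. All mature strands whose name begins with mmu-miR-219 or mmu-miR-338 were taken, which gave 9 of the 1841 miRNAs listed. The 4 abundant strands are mmu-miR-219a-5p, mmu-miR-219a-2-3p, mmu-miR-338-3p and mmu-miR-338-5p, written below without the species prefix, and the other 5 had at most 27 reads in any library. Small RNAs of male mice on the C57BL/6J strain were sequenced in 18 libraries, 3 biological replicates for each of 6 groups. The hippocampus groups were CyrKO, which lacks the long noncoding RNA Cyrano, and wild type (WT). The cerebellum groups were the double mutant CyrKO;Cdr1as671, the single mutants Cdr1as671 and CyrKO, and WT. Cdr1as671 carries an 18-nt deletion of the site for miR-671 in the circular RNA Cdr1as, so both Cdr1as671 groups share that deletion. Whether the mutant lines derive from 1 founder or several is not given in the sources used here, and whole tissue was used, so a strand's level sums over every cell type present.

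A microRNA is cut from a hairpin precursor, and one or both strands of the stem are loaded into an Argonaute protein, which they guide to messenger RNAs through the seed, bases 2 to 8. Oligodendrocyte precursors raise miR-219 and miR-338 as they stop dividing. Both repress factors that hold precursors in the immature state, among them Sox6, Hes5 and the growth factor receptor Pdgfra, and mice that lack them in this lineage myelinate poorly. miR-219a-5p is also known from neurons, where it has been tied to glutamate signalling and to the circadian clock. Cyrano and Cdr1as belong to a different circuit, in which Cyrano triggers the decay of miR-7 and miR-671 directs slicing of Cdr1as.

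The sequences show which strands can be told apart by sequencing. RefSeq's table for GRCm38.p6 matched 8 of the 9 strands by name, all but miR-219a-2-3p. The 4 mature strands below come from the miR-219a and miR-338 precursors, with the seed in capitals.
miR-219a-5p: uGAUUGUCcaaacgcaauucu
miR-219a-1-3p: aGAGUUGCgucuggacgucccg
miR-338-3p: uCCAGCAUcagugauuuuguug
miR-338-5p: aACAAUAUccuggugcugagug
No other mature mouse strand in that table of 1679 names shares a seed with any of these 4, so each stands alone as a seed family there.

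The miR-219a precursor exists in 2 copies, Mir219a-2 at chr2:29845631-29845727 and Mir219a-1 at chr17:34024983-34025092, both on the minus strand of GRCm38.p6. Their hairpins are shown to place the shared 5p strand, in capitals.
Mir219a-2: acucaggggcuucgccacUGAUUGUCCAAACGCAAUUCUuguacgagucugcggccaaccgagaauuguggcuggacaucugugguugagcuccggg
Mir219a-1: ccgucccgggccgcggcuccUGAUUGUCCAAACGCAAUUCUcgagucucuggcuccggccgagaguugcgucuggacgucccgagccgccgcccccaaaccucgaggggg
The 21-nt 5p strand is identical in both copies, so its reads cannot be assigned to one, whereas the 3p strands differ and report on their own copy. Mir338 lies at chr11:120014765-120014862, also on the minus strand, within an intron of Aatk in GENCODE M21. Aatk encodes a kinase made in the nervous system. Mir219a-1 overlaps an exon of the noncoding transcript Gm26940, and no protein-coding gene overlaps either miR-219a copy in that annotation. All 3 loci have a second annotated precursor on the opposite strand: Mir219b at Mir219a-2, Mir219c at Mir219a-1 and Mir3065 at Mir338. The mature miR-3065-5p is complementary to miR-338-3p over 21 bases.

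Libraries held between 8591172 and 15305829 miRNA reads, and 1042 to 1174 of the listed miRNAs had at least 1 read. RNA integrity numbers ran from 8.5 to 9.5. As a check of the Cyrano labels, miR-7a-5p stood at 25224 ± 891 CPM (reads per 1000000 miRNA reads, mean ± SD, n = 3) in CyrKO hippocampus against 4314 ± 491 in WT hippocampus. In cerebellum it stood at 37299 ± 4214 CPM in CyrKO;Cdr1as671, 590 ± 80.1 in Cdr1as671, 20026 ± 838 in CyrKO and 496 ± 52.9 in WT. The tables hold miRNAs only, so the Cdr1as deletion itself was not checked. miRNAs typical of the forebrain (miR-137-3p, miR-132-3p, miR-221-3p and miR-222-3p) summed to 26205 to 29396 CPM in the 6 hippocampus libraries and 4539 to 5931 CPM in the 12 cerebellum libraries. miR-216a-5p, miR-216b-5p and miR-217-5p, used as cerebellum markers, summed to 4.65 to 7.80 and 370 to 588 CPM in those hippocampus and cerebellum libraries, so both lists went with the tissue labels.

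Together the 4 abundant strands accounted for 1.33% ± 0.0535 of the reads in CyrKO hippocampus, against 1.39% ± 0.331 in WT hippocampus. In cerebellum the share was 0.832% ± 0.0636 in CyrKO;Cdr1as671, 0.893% ± 0.119 in Cdr1as671, 0.847% ± 0.186 in CyrKO and 0.967% ± 0.145 in WT (SD, n = 3 each). The 95% exact binomial (Clopper-Pearson) interval of the lowest library ran from 0.700% to 0.710%, and such intervals cover counting error only. Differences between libraries were therefore far larger than the counting error. Reads of different strands are compared below as reads, since how well each ligates into a library was not calibrated.

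mmu-miR-338-3p, the main strand of its precursor and a promoter of oligodendrocyte maturation, ranked between 28th and 40th by reads in every library. It stood at 6906, 6717 and 7224 CPM in the 3 CyrKO hippocampus libraries and 7546, 7591 and 5684 CPM in the WT hippocampus libraries. In cerebellum it stood at 5080, 6103 and 5979 CPM in CyrKO;Cdr1as671, 5912, 5814 and 6741 in Cdr1as671, 4098, 4513 and 5407 in CyrKO and 5987, 5382 and 4407 in WT. Over all 18 libraries its highest value was 1.85 times its lowest, and each group's range overlapped that of the next group in the order of means.

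mmu-miR-338-5p, the minor strand, stood at 477, 438 and 454 CPM in CyrKO hippocampus and 424, 494 and 498 CPM in WT hippocampus. In cerebellum it stood at 332, 362 and 392 CPM in CyrKO;Cdr1as671, 447, 434 and 399 in Cdr1as671, 461, 271 and 343 in CyrKO and 323, 350.1 and 377 in WT. Its highest value was 1.84 times its lowest. The only gap between neighbours in the order of group means was between Cdr1as671 and CyrKO;Cdr1as671, whose libraries did not overlap. miR-338-3p took 93.5% ± 1.21 of the reads of both miR-338 strands over the 18 libraries, between 89.9% in 1 CyrKO cerebellum library and 94.9% in 1 WT cerebellum library.

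mmu-miR-219a-2-3p, the 3p strand of the Mir219a-2 copy, stood at 986, 954 and 986 CPM in CyrKO hippocampus and 921, 1060 and 874 CPM in WT hippocampus. In cerebellum it stood at 572, 727 and 749 CPM in CyrKO;Cdr1as671, 823, 745 and 738 in Cdr1as671, 568, 421 and 652 in CyrKO and 614, 638 and 601 in WT. Every hippocampus library lay above every cerebellum library. Under the looser condition of 3 libraries against 3 within a genotype, 72% of miRNAs tested in WT and 77.3% in CyrKO did not overlap between tissues. The share over all hippocampus and cerebellum libraries is not given here. Within cerebellum the order of means was Cdr1as671, CyrKO;Cdr1as671, WT and CyrKO, and each neighbouring pair overlapped. Nearly all 3p reads of miR-219a came from the Mir219a-2 copy: miR-219a-2-3p took 99.77% ± 0.0811 of them over 18 libraries, with 99.58% the lowest.

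mmu-miR-219a-5p, the strand that carries most miR-219 reads and represses Pdgfra and Sox6, was the least steady of the 4. It stood at 4611, 4808 and 5209 CPM in CyrKO hippocampus and 7155, 6378 and 3006 CPM in WT hippocampus. In cerebellum it stood at 1695, 1759 and 1219 CPM in CyrKO;Cdr1as671, 1040, 1277 and 2422 in Cdr1as671, 1922, 2589.5 and 4171 in CyrKO and 4405, 2273 and 3641 in WT. Its highest value was 6.88 times its lowest, and its place by reads moved between 29th and 74th. The 5 lowest libraries of the 18 all carried the Cdr1as671 deletion. The sixth library with it, at 2422 CPM, lay above 1 CyrKO library at 1922 CPM and 1 WT library at 2273 CPM.

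**Figure D1:**
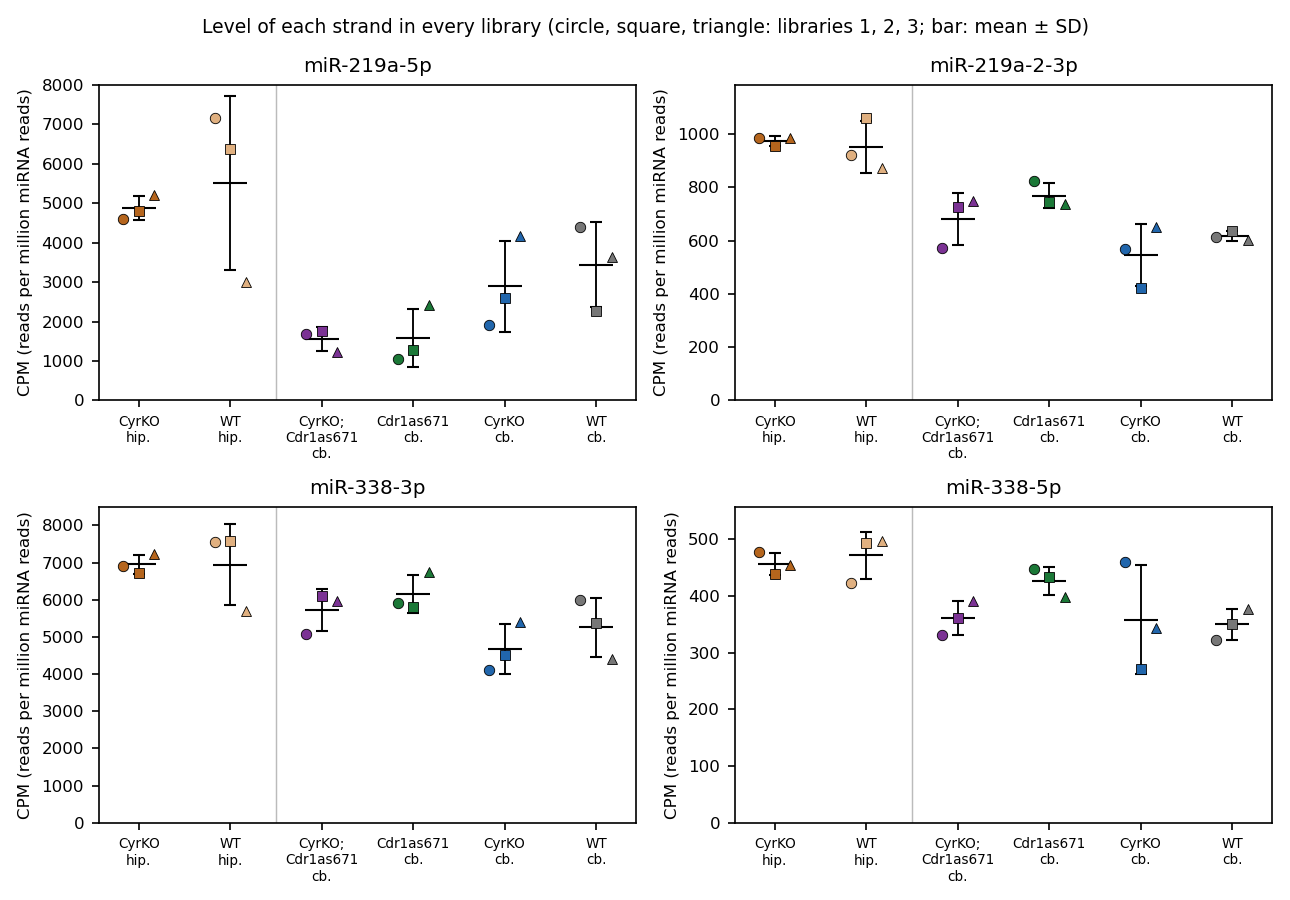
Level of miR-219a-5p, miR-219a-2-3p, miR-338-3p and miR-338-5p in CPM (y axes, from 0) in each library of the 6 groups (x axes; hip. hippocampus, cb. cerebellum), with the mean and SD of 3 libraries. miR-219a-5p runs from 1040 to 7155 CPM and has its lowest means in the 2 cerebellum groups with the Cdr1as671 deletion, while the other 3 strands stay within a 2.52-fold range.

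The spread within groups sets what can be detected. Over the 243 miRNAs with a mean of at least 100 CPM, the median within-group SD was 0.13 on the log2 CPM scale. miR-219a-2-3p, miR-338-3p and miR-338-5p had SDs of 0.17, 0.18 and 0.18, in places 51, 49 and 42 from the largest. miR-219a-5p had an SD of 0.50 and stood 11th, so its libraries varied more among replicates than nearly all abundant miRNAs did.

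Loss of Cyrano left no detectable change in these strands. Of the 9 strands, 5 had enough reads to be tested in each comparison, namely the 4 above and miR-219a-1-3p. None passed an adjusted p of 0.05 in CyrKO against WT hippocampus (edgeR's quasi-likelihood test with Benjamini-Hochberg adjustment over 702 miRNAs, 0.57% of which were called). None passed in CyrKO against WT cerebellum either, where 0.898% of 668 were called. At an unadjusted p of 0.05 no member passed in either comparison, and DESeq2 called 0 in both. CPM of the groups overlapped for all 5, while 9.12% of miRNAs in hippocampus and 8.08% in cerebellum had groups that did not overlap. In hippocampus miR-219a-2-3p gave 0.02 ± 0.08 (log2 fold change ± SE) and miR-338-3p -0.02 ± 0.11, and in cerebellum they gave -0.18 ± 0.13 and -0.17 ± 0.13. miR-219a-5p gave -0.19 ± 0.36 in hippocampus (adjusted p = 0.948) and -0.25 ± 0.41 in cerebellum (adjusted p = 0.999). WT hippocampus library 3, at 3006 CPM, set the hippocampus value: without it miR-219a-5p was at -0.48 ± 0.08 with an adjusted p of 0.0258 (edgeR). That library also had the lowest sum of choroid plexus miRNAs (5 listed) of all 18. They summed to 5653, 16508 and 12229 CPM in the CyrKO hippocampus libraries and 7121, 15545 and 3528 CPM in the WT ones, against 7369 to 11399 CPM in cerebellum, and none was at 0 in any group. The part of choroid plexus RNA in the result was not tested. The CyrKO effects in the 2 tissues, hippocampus minus cerebellum, differed by 0.06 ± 0.53 for miR-219a-5p and by no more than 0.20 for the other 3 abundant strands, with adjusted p of 0.968 or above (edgeR, 0.402% of 746 miRNAs called). Over both Cdr1as genotypes, a comparison added after the counts had been seen, Cyrano loss in 6 cerebellum libraries against 6 gave -0.08 ± 0.30 for miR-219a-5p, -0.11 ± 0.09 for miR-219a-2-3p, -0.08 ± 0.09 for miR-338-3p and -0.04 ± 0.10 for miR-338-5p. There too edgeR called 0 of 5 members (0.872% of 688 miRNAs), with 0 at an unadjusted p under 0.05 and 0 by DESeq2. Fewer cells of a type and less RNA per cell cannot be told apart in whole tissue.

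With the Cdr1as671 deletion, the mean of miR-219a-5p was below that of WT and those of the other 3 abundant strands were above it. miR-219a-5p averaged 1580 ± 739 CPM in Cdr1as671 and 3440 ± 1080 CPM in WT cerebellum (SD, n = 3 each), a log2 fold change of -1.16 ± 0.48 that missed the threshold (edgeR adjusted p = 0.274). miR-219a-2-3p averaged 769 ± 47.0 CPM in Cdr1as671 and 618 ± 18.8 CPM in WT, a log2 fold change of 0.28 ± 0.10 (edgeR adjusted p = 0.158). miR-338-5p gave 0.25 ± 0.10 and miR-338-3p 0.19 ± 0.13, with adjusted p of 0.21 and 0.456 (edgeR). No member was called by edgeR, against 2.26% of the 665 miRNAs tested, while 2 had an unadjusted p under 0.05 and DESeq2 called 0. miR-219a-2-3p and miR-338-5p were higher in all 3 Cdr1as671 libraries than in any WT library, and 25% of miRNAs tested had groups that did not overlap.

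The double mutant gave similar values. miR-219a-5p averaged 1558 ± 295 CPM in CyrKO;Cdr1as671 against 3440 ± 1080 CPM in WT cerebellum, and the 2 groups did not overlap, as was the case for 26.6% of miRNAs tested. The log2 fold change was -1.07 ± 0.32, with an adjusted p of 0.180 by edgeR, which called none of the 5 members and 2.57% of 662 miRNAs. At an unadjusted p of 0.05, 1 member passed. DESeq2 gave an adjusted p of 0.0139 for the same strand, and the authors' deposited table gives 0.0151, so the call turned on the tool. It also turned on WT library 2, at 2273 CPM, without which the change was -1.29 ± 0.18 (edgeR adjusted p = 0.0158). miR-219a-2-3p, miR-338-3p and miR-338-5p gave 0.23 ± 0.11, 0.20 ± 0.13 and 0.13 ± 0.09, with adjusted p of 0.271 or above (edgeR). Without CyrKO;Cdr1as671 library 1, its lowest, miR-219a-2-3p was called at 0.35 ± 0.07 (edgeR adjusted p = 0.0411). The single- and double-mutant comparisons share the WT libraries, so their likeness is not independent.

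CyrKO;Cdr1as671 against CyrKO compares libraries with and without the deletion that differ from those of Cdr1as671 against WT. miR-219a-5p stood at 1558 ± 295 CPM in CyrKO;Cdr1as671 and 2894 ± 1155 CPM in CyrKO, with no overlap (29.5% of miRNAs tested) and a log2 fold change of -0.84 ± 0.43 (edgeR adjusted p = 0.312). miR-219a-2-3p gave 0.37 ± 0.13 and miR-338-3p 0.34 ± 0.13, with adjusted p of 0.151 and 0.167 (edgeR). No member was called, beside 2.33% of 688 miRNAs, though 2 had an unadjusted p under 0.05, and DESeq2 called 0. Without CyrKO;Cdr1as671 library 1, miR-219a-2-3p was called at 0.55 ± 0.13 (edgeR adjusted p = 0.0437). CyrKO;Cdr1as671 against Cdr1as671 gave 0.07 ± 0.43 for miR-219a-5p, -0.06 ± 0.13 for miR-219a-2-3p, -0.0017 ± 0.13 for miR-338-3p and -0.13 ± 0.15 for miR-338-5p. None was called by edgeR (0.727% of 688) or DESeq2, and 0 had an unadjusted p under 0.05. With library totals the median of all miRNAs moved by -0.11 in this comparison, and miR-219a-5p was at -0.02. The CPM of miR-338-5p did not overlap between these 2 groups, as for 17.2% of miRNAs. The interaction of both mutations was 0.32 ± 0.60 for miR-219a-5p, and no member was called by edgeR (0.145% of 688) or DESeq2, with 0 at an unadjusted p under 0.05.

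**Figure D2:**
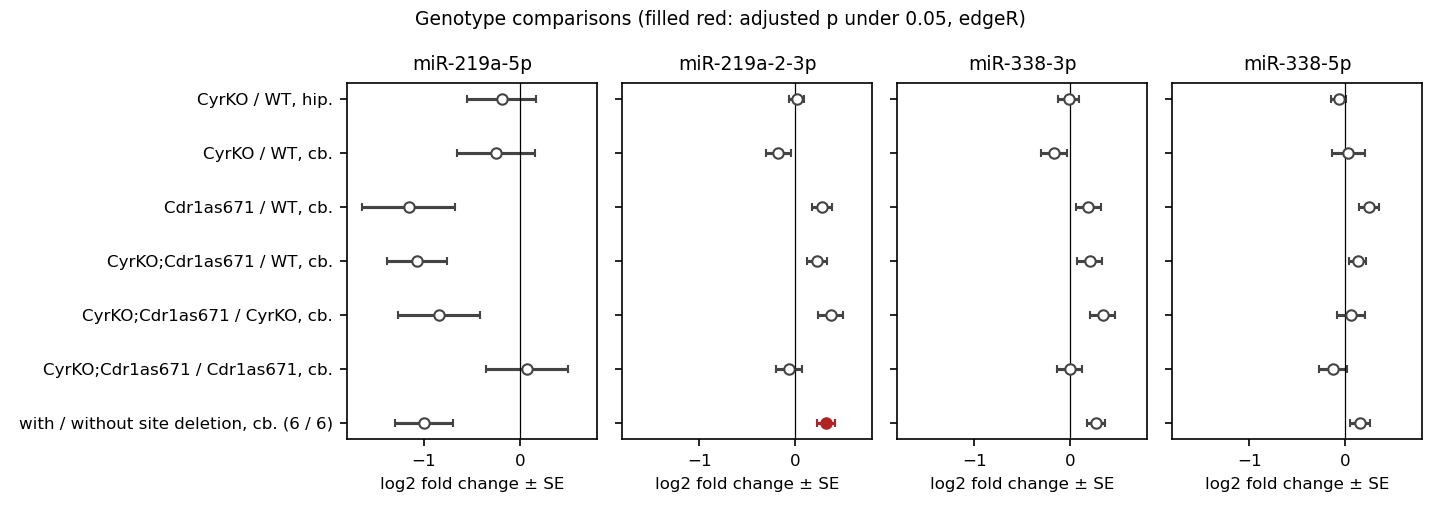
Log2 fold change with its SE (x axes) of the 4 abundant strands in 7 genotype comparisons (rows; hip. hippocampus, cb. cerebellum), with filled red points for adjusted p under 0.05 by edgeR. In the 4 rows with the Cdr1as671 deletion on a single side, miR-219a-5p lies between -0.84 and -1.16 and miR-219a-2-3p between 0.23 and 0.37. These 4 rows share libraries and are not independent. The bottom row averages the deletion's change over both Cyrano genotypes, and CyrKO;Cdr1as671 over WT differs in Cyrano as well.

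Setting the 6 cerebellum libraries with the deletion against the 6 without it was added after the counts had been seen. The fit had a mean for each group, and the change was averaged over both Cyrano genotypes. Here miR-219a-2-3p was higher by 0.32 ± 0.09 (edgeR adjusted p = 0.0255), while miR-219a-5p at -0.999 ± 0.30 and miR-338-3p at 0.27 ± 0.09 both had an adjusted p of 0.0571. miR-338-5p gave 0.15 ± 0.10 (edgeR adjusted p = 0.320). Thus 1 of 5 members was called, against a background of 17.3% of the 688 miRNAs tested, and DESeq2 called 3. The miR-219a-2-3p call was lost on leaving out WT library 3, Cdr1as671 library 1, or CyrKO;Cdr1as671 library 2 or 3, with adjusted p between 0.0571 and 0.0770 (edgeR). The miR-219a-5p call was gained without WT library 2 (-1.10, adjusted p = 0.0461) or Cdr1as671 library 3 (-1.23, adjusted p = 0.0160). miR-338-3p passed at adjusted p of 0.0431, 0.0470 and 0.0484 without WT library 1, Cdr1as671 library 2 and CyrKO;Cdr1as671 library 1 (edgeR). miR-338-5p passed without CyrKO library 1, at 0.27 (edgeR adjusted p = 0.0286).

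The ratio of miR-219a-5p to miR-219a-2-3p within a library does not depend on how libraries are scaled. Reads of miR-219a-5p can come from Mir219a-1 or Mir219a-2, whereas miR-219a-2-3p comes from Mir219a-2 only. The ratio is therefore not that of the arms of a single hairpin. miR-219a-5p reads were 2.97, 2.42 and 1.63 times those of miR-219a-2-3p in CyrKO;Cdr1as671 and 1.26, 1.71 and 3.28 times in Cdr1as671. They were 3.38, 6.15 and 6.40 times in CyrKO cerebellum and 7.18, 3.56 and 6.06 times in WT cerebellum. All 6 libraries with the deletion lay below all 6 without it, with 3.28 the highest of the first set and 3.38 the lowest of the second. How often ratios of other miRNAs show such a gap is not given here. In hippocampus the ratios were 4.68, 5.04 and 5.28 in CyrKO and 7.77, 6.02 and 3.44 in WT, all above the highest cerebellum library with the deletion.

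On the log2 scale, the ratio of miR-219a-5p to miR-219a-2-3p averaged 0.94 ± 0.70 in Cdr1as671 and 2.42 ± 0.53 in WT cerebellum, a difference of -1.48. In CyrKO;Cdr1as671 it averaged 1.18 ± 0.44, a difference of -1.24 from WT. Both comparisons reached the smallest p that 3 against 3 allows, 0.1 by a two-sided exact permutation test, and 0.9 after adjustment over the 18 ratio tests. For 6 libraries against 6, chosen after the values were seen, the means were 1.06 ± 0.54 with the deletion and 2.39 ± 0.47 without it, and the two-sided exact permutation p was 0.00216, the smallest such a split can give. CyrKO minus WT gave -0.12 in hippocampus and -0.07 in cerebellum, with exact permutation p of 0.7 and 0.8.

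The other ratios were steadier. miR-338-3p exceeded miR-338-5p between 8.89 and 18.5 times, and miR-219a-2-3p was 0.0933 to 0.154 times miR-338-3p, a 1.65-fold range over 18 libraries for strands of 2 separate genes. None of the other 16 ratio comparisons had groups that failed to overlap, and their exact permutation p ran from 0.2 to 1.

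**Figure D3:**
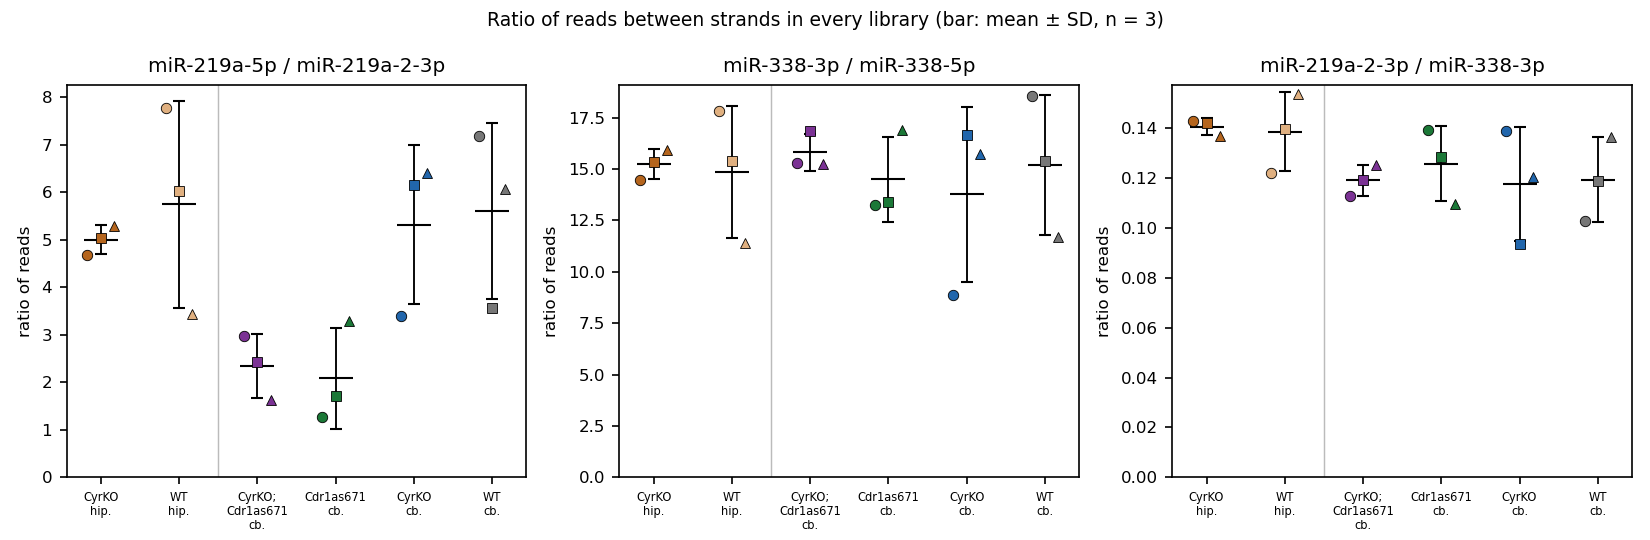
Ratio of reads between 2 strands (y axes, from 0) in each library of the 6 groups (x axes), with the mean and SD of 3 libraries. The ratio of miR-219a-5p to miR-219a-2-3p lies at or below 3.28 in the 6 cerebellum libraries with the Cdr1as671 deletion and at or above 3.38 in the other 12, while the ratios that do not involve miR-219a-5p show no such gap.

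The labels give no preparation batch, so anything that the Cdr1as671 libraries share beside the deletion cannot be told apart from it. Red blood cell miRNAs (miR-144-3p and miR-451a, 2 of the 3 listed) varied with it in part. They summed to 15923, 5375 and 10931 CPM in the CyrKO;Cdr1as671 libraries, 779, 601 and 16115 in Cdr1as671, 24917, 27849 and 16479 in CyrKO and 13849, 6287 and 32779 in WT cerebellum. Cdr1as671 libraries 1 and 2 had the lowest sums of all 18 libraries, and their miR-219a-5p levels, 1040 and 1277 CPM, were among the 3 lowest. Without these 2 libraries, an exclusion chosen after seeing the data, the Cdr1as671 mean rested on library 3 alone. At 2422 CPM that library had the most miR-219a-5p of those with the deletion. The change averaged over both Cyrano genotypes was then -0.63 for miR-219a-5p, 0.36 for miR-219a-2-3p and 0.40 for miR-338-3p. The log2 ratio of miR-219a-5p to miR-219a-2-3p was -1.07 with the deletion minus without it (two-sided exact permutation p = 0.00952). That p is the smallest such a split can give. Every cerebellum library with the deletion already lay below every one without it, so leaving libraries out could not have given another outcome. Hippocampus libraries had sums of 2571 to 3555 CPM with miR-219a-5p at 3006 to 7155 CPM. The part of red blood cell RNA in the result was not tested. Immune cell miRNAs (all 5 listed) summed to 2279 to 2444 CPM in CyrKO;Cdr1as671, 2764 to 2930.5 in Cdr1as671, 2673 to 3199 in CyrKO and 2474 to 3256 in WT cerebellum. Of these 5, miR-223-3p fell with the deletion in 6 libraries against 6, at -0.37 ± 0.10 (edgeR adjusted p = 0.0235), and the list median was -0.37 beside -0.01 over all miRNAs. Of the 4 forebrain miRNAs 2 fell, miR-137-3p at -0.34 ± 0.08 and miR-221-3p at -0.26 ± 0.07 (edgeR adjusted p of 0.0121 and 0.0224), with a list median of -0.20. Of 4 vessel miRNAs 1 rose, miR-143-3p at 0.45 ± 0.07 (edgeR adjusted p = 0.000923), with a list median of 0.01. Over all 688 miRNAs tested in that comparison, 17.3% were called and 10.2% fell. The part of these cell types in the result was not tested. No marker of the red blood cell or immune list was at 0 in any group.

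The miRNAs that ran most closely parallel to each strand were found by the SD, over 18 libraries, of the log2 ratio of the 2 CPM values, among the 243 miRNAs with a mean of at least 100 CPM. For miR-219a-2-3p, whose own log2 CPM had an SD of 0.35, these were miR-24-3p (0.15), miR-151-5p (0.16), miR-151-3p (0.17), miR-100-5p (0.17) and miR-326-3p (0.18). miR-338-3p came 8th with 0.19 and miR-338-5p 12th with 0.21, whereas miR-219a-5p came 197th with 0.78. For miR-338-3p, with an SD of 0.26, the closest were miR-210-3p (0.17), miR-186-5p (0.17), miR-24-3p (0.19), miR-219a-2-3p (0.19) and miR-100-5p (0.19). miR-338-5p, the other strand of its own hairpin, came 28th with 0.26. All values share library, depth and 2 tissues, so the measure is a description.

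Ranked the same way, a step added after the counts had been seen, miR-219a-5p ran nearest to miR-20a-5p (0.34), miR-17-5p (0.38) and miR-18a-5p (0.41), then miR-99a-5p (0.42) and miR-544-3p (0.44), with its own SD at 0.85. The first 3 are strands of the miR-17-92 cluster on chromosome 14, known for driving cell division, precursors of oligodendrocytes included. They are printed, with seeds in capitals, to show that none shares its seed with miR-219a-5p.
miR-20a-5p: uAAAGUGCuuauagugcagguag
miR-17-5p: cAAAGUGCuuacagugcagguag
miR-18a-5p: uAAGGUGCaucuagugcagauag
miR-20a-5p stood at 633 to 680 CPM in CyrKO hippocampus and 655 to 722 in WT hippocampus. In cerebellum it stood at 250.2, 194 and 154 CPM in CyrKO;Cdr1as671, 146, 162 and 256 in Cdr1as671, 351, 332 and 344 in CyrKO and 411, 280.4 and 382 in WT. Its highest cerebellum library with the deletion, at 256 CPM, lay below the lowest without it, at 280.4 CPM. The share of all miRNAs with such a gap is not given here, and 17.3% of 688 were called between these libraries (edgeR). miR-20a-5p was picked for its likeness to miR-219a-5p in these same libraries, so this gap is not separate evidence. The closest miRNAs to miR-338-5p were miR-744-5p (0.11), miR-150-5p (0.12), miR-100-5p (0.13), miR-191-5p (0.14) and miR-24-3p (0.15).

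**Figure D4:**
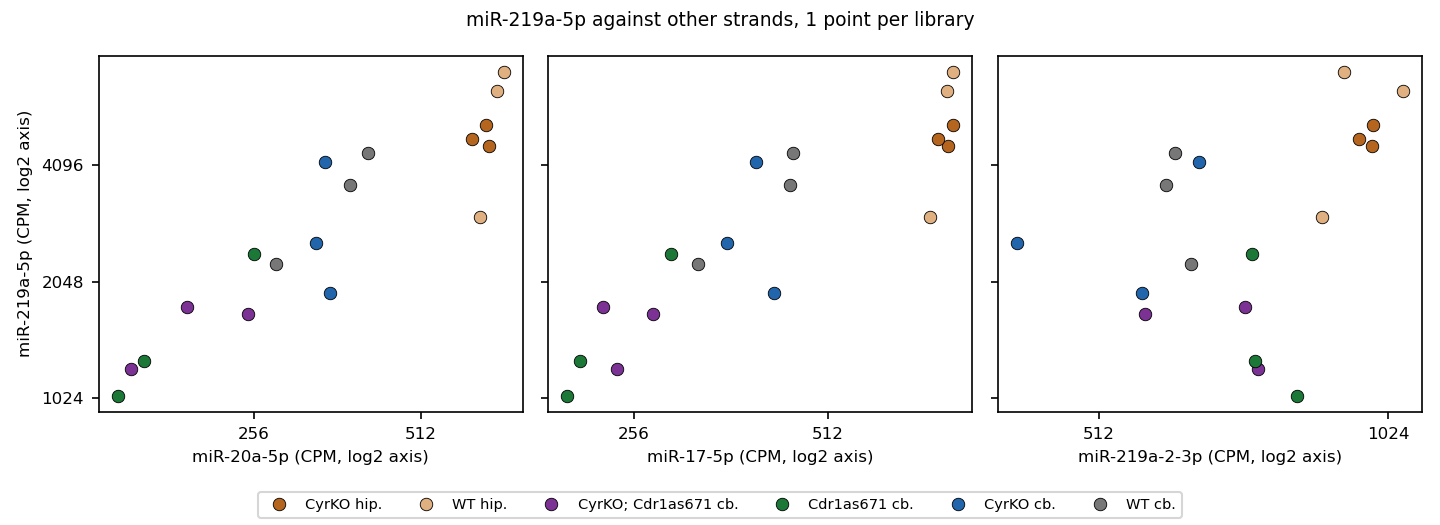
miR-219a-5p in CPM (y axes, log2) against miR-20a-5p, miR-17-5p and miR-219a-2-3p in CPM (x axes, log2), 1 point per library, coloured by group. Libraries with the Cdr1as671 deletion lie between 146 and 256 CPM of miR-20a-5p and between 1040 and 2422 CPM of miR-219a-5p, whereas their miR-219a-2-3p, between 572 and 823 CPM, lies within or above the range of the other cerebellum libraries for that strand. miR-20a-5p and miR-17-5p were picked for their likeness to miR-219a-5p in these same libraries.

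Between tissues, the answer depended on what the strands were set against. As a share of reads, miR-219a-2-3p averaged 975 ± 18.3 CPM in CyrKO hippocampus and 547 ± 117 in CyrKO cerebellum, and 951 ± 96.6 CPM in WT hippocampus and 618 ± 18.8 in WT cerebellum. miR-338-3p averaged 6949 ± 256 CPM in CyrKO hippocampus and 4673 ± 669 in CyrKO cerebellum, and 6941 ± 1088 CPM in WT hippocampus and 5259 ± 797 in WT cerebellum. In WT, 2 of the 5 members tested (miR-219a-2-3p and miR-338-5p) did not overlap between tissues, beside 72% of all miRNAs tested. In CyrKO, 3 of 5 (miR-219a-5p, miR-219a-2-3p and miR-338-3p) did not, beside 77.3%.

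Set against the bulk of miRNAs by TMM scaling (trimmed mean of M-values), the differences were nearer 0. In WT hippocampus over WT cerebellum, miR-219a-2-3p gave 0.07 ± 0.11, miR-338-3p -0.16 ± 0.13, miR-338-5p -0.12 ± 0.14 and miR-219a-5p 0.13 ± 0.38, none of them called. In CyrKO hippocampus over CyrKO cerebellum, miR-219a-2-3p gave 0.27 ± 0.11 (edgeR adjusted p = 0.0445), miR-338-3p 0.0004 ± 0.13, miR-338-5p -0.22 ± 0.14 and miR-219a-5p 0.19 ± 0.38. The miR-219a-2-3p call was lost without any one of WT cerebellum libraries 1 and 3, CyrKO cerebellum libraries 1 and 2, and CyrKO hippocampus libraries 1 and 3, with adjusted p between 0.0509 and 0.203 (edgeR). Leaving out CyrKO cerebellum library 2 also brought in miR-338-5p at -0.36 (edgeR adjusted p = 0.0180). With TMM, 1 of 5 members was called in WT, beside 70% of 746 miRNAs, and 2 of 5 in CyrKO, beside 72.1%. Markers of other cell types also differed between tissues by TMM. Of 5 choroid plexus miRNAs 3 rose in CyrKO hippocampus and 2 in WT hippocampus (edgeR). Among 5 immune cell miRNAs 4 fell in CyrKO and 2 in WT, and both red blood cell miRNAs tested fell in each genotype. Of 4 neuron miRNAs 1 rose and 2 fell in each genotype, and of 4 vessel miRNAs 1 rose in CyrKO and 0 in WT. Of 2 Schwann cell or muscle miRNAs tested 1 fell in each genotype. The summed CPM of the immune list did not fall, at 3004 to 3316 in CyrKO hippocampus and 2673 to 3199 in CyrKO cerebellum. In WT hippocampus and cerebellum these sums were 3123 to 3499 and 2474 to 3256 CPM. The part of these cell types in the members' values was not tested.

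Scaling by library totals alone moved the median of all miRNAs by 0.55 in WT and 0.58 in CyrKO on the log2 scale, and the members moved with it. miR-219a-2-3p was then higher by 0.84 ± 0.12 in CyrKO hippocampus over CyrKO cerebellum (edgeR adjusted p = 1.9e-05) and by 0.62 ± 0.12 in WT hippocampus over WT cerebellum (adjusted p = 0.000327). miR-338-3p was higher by 0.57 ± 0.13 in CyrKO (adjusted p = 0.00131) and 0.40 ± 0.13 in WT (adjusted p = 0.0144), and miR-338-5p by 0.35 ± 0.15 (adjusted p = 0.0429) and 0.43 ± 0.15 (adjusted p = 0.0162). miR-219a-5p was at 0.75 ± 0.40 in CyrKO and 0.68 ± 0.40 in WT, and was not called under either scaling.

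miR-219a-1-3p, the 3p strand of the second miR-219a copy, had few reads. It had 11 to 19 reads in CyrKO hippocampus and 17 to 27 in CyrKO cerebellum, and 12 to 16 reads in WT hippocampus and 18 to 23 in WT cerebellum. That is 1.44 ± 0.200 CPM in CyrKO hippocampus and 1.68 ± 0.143 in CyrKO cerebellum, and 1.52 ± 0.180 CPM in WT hippocampus and 1.89 ± 0.296 in WT cerebellum. With TMM it was lower in hippocampus, at -0.80 ± 0.24 in CyrKO (edgeR adjusted p = 0.00796) and -0.85 ± 0.25 in WT (adjusted p = 0.00597). With library totals alone it was at -0.22 ± 0.23 and -0.31 ± 0.24 and not called.

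**Figure D5:**
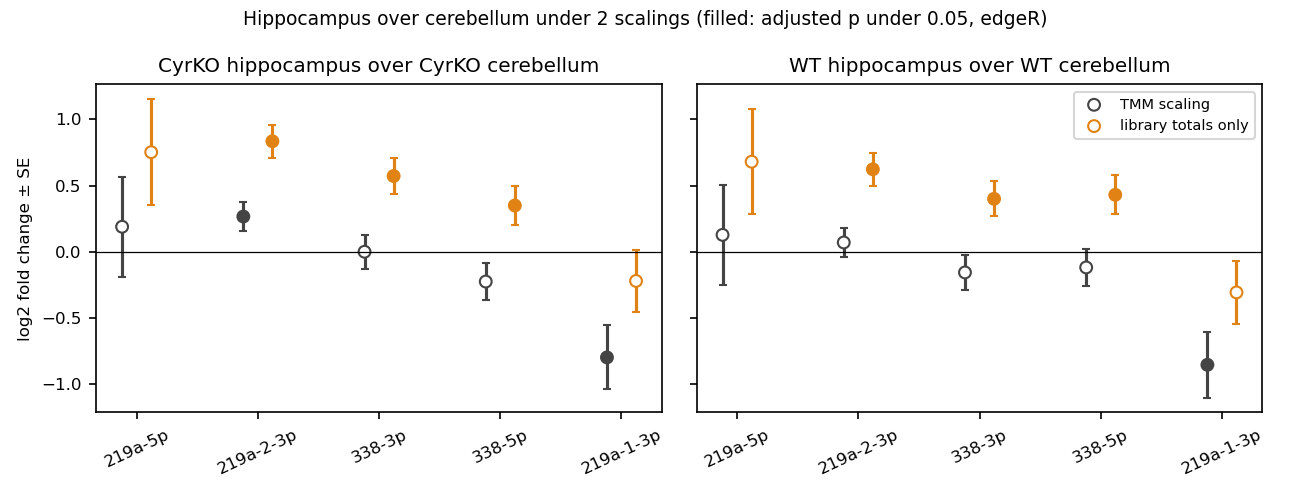
Log2 fold change with its SE (y axis) of the 5 members tested (x axes) for hippocampus over cerebellum in CyrKO and in WT, with TMM scaling and with library totals only, filled where the adjusted p is under 0.05 by edgeR. Every member sits higher with library totals than with TMM, and miR-219a-1-3p is lowest under both.

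Other miRNAs reported to act in the oligodendrocyte lineage were read as a list of 11, of which 8 were tested (miR-138-5p, miR-32-5p, miR-146a-5p, miR-145a-5p, miR-125a-3p, miR-17-5p, miR-19b-3p and miR-212-3p). The counts had no entry named miR-23a-3p, miR-27a-3p or miR-27b-3p, so the levels of these were not read. miR-138-5p also stands in the list for neurons and miR-145a-5p in that for vessels. None of the 8 is taken here as particular to the lineage. None of the 8 was called by edgeR with TMM in CyrKO against WT in either tissue (0 at an unadjusted p under 0.05, 0 by DESeq2), nor in CyrKO;Cdr1as671 against WT (2 at an unadjusted p under 0.05, 1 by DESeq2). These comparisons had list medians of 0.02 in hippocampus, -0.05 in CyrKO cerebellum and -0.06 in CyrKO;Cdr1as671, beside 0.00, -0.01 and -0.01 over all miRNAs. With library totals, miR-17-5p was called in CyrKO;Cdr1as671 against WT, at -0.71 ± 0.14 (edgeR adjusted p = 0.0224). In Cdr1as671 against WT, 1 of 8 fell, beside 1.5% of all miRNAs, namely miR-19b-3p at -0.81 ± 0.17 (edgeR adjusted p = 0.0426), and the median was -0.09 beside -0.01. With RLE size factors miR-19b-3p stood at -0.80 with an adjusted p of 0.101 (edgeR), so the call did not hold there. With library totals miR-19b-3p (adjusted p = 0.0115) and miR-17-5p (adjusted p = 0.0194, edgeR) both fell, and DESeq2 called 2 of the 8. With 6 libraries against 6, 2 of 8 fell, beside 10.2% of all miRNAs. These were miR-17-5p at -0.72 ± 0.12 (adjusted p = 0.00286) and miR-19b-3p at -0.55 ± 0.15 (adjusted p = 0.0236). miR-17-5p comes from the miR-17-92 cluster, which supports division of precursors. Reads of miR-19b-3p were not assigned to a locus.

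Between tissues, 4 of the 8 rose and 3 fell in hippocampus in both genotypes by TMM. Of all miRNAs, 38.9% rose and 33.2% fell in CyrKO, and 37.5% rose and 32.4% fell in WT. miR-138-5p, reported to promote early differentiation, rose by 1.47 ± 0.09 in CyrKO and 1.24 ± 0.09 in WT. miR-146a-5p, a brake on innate immune signalling, rose by 1.24 ± 0.09 and 1.39 ± 0.09, miR-212-3p by 1.02 ± 0.10 and 1.37 ± 0.10, and miR-17-5p by 0.42 ± 0.11 and 0.38 ± 0.11, for CyrKO and WT. miR-125a-3p, reported to slow precursor maturation, fell by 1.34 ± 0.10 in CyrKO and fell by 1.45 ± 0.11 in WT. miR-19b-3p at -0.58 ± 0.10 in both genotypes and miR-32-5p at -0.28 ± 0.12 and -0.37 ± 0.12 were the other 2 (edgeR adjusted p of at most 0.0458 for all 7 in CyrKO and 0.0104 in WT). With library totals alone miR-32-5p turned to 0.30 and 0.18 and miR-19b-3p stood at 0.00 and -0.03, so of the 3 falls only that of miR-125a-3p passed under both scalings, while all 4 rises did. By library totals miR-145a-5p rose as well, by 0.82 ± 0.12 in CyrKO and 0.50 ± 0.12 in WT, and the change of miR-32-5p passed in CyrKO (edgeR adjusted p = 0.0235). The list then held 6 rises and 1 fall in CyrKO, and 5 rises and 1 fall in WT. In CyrKO and in WT, the list medians were 0.33 and 0.17 beside 0.10 and 0.03 over all miRNAs.

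The remaining members were at the edge of detection. miR-219c-5p, from the strand opposite Mir219a-1, had 1 to 7 reads in all 18 libraries. miR-219b-3p and miR-219b-5p, opposite Mir219a-2, had at most 2 reads and were seen in 4 and 5 libraries, and miR-219c-3p had 1 read in each of 2 libraries. Opposite Mir338, miR-3065-5p had 0 to 3 reads and miR-3065-3p 0 or 1. A count of 0 allows up to 3 reads per library, so no difference between groups was detectable for these strands at this depth.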

How the data were processed

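Small RNAs of 18 to 32 nt were sequenced from 5 ug of total RNA per library, per the labels' protocols. Cutadapt and DESeq2 1.10 are listed in the submitters' processing notes; for the aligner, the miRNA annotation and the genome build, the sources used here state nothing. Each of 4 tables the authors deposited lists 1841 miRNAs. Their raw counts are whole reads per miRNA, and the WT cerebellum counts, identical in 3 tables, entered once. The deposited normalised columns (signal, counts over size factors) and Wald statistics (score) were not analysed. The authors' log2 fold changes, standard errors, p-values and adjusted p-values, per the file headers, served only as an alternative.

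Levels are CPM, the count per 1000000 miRNA reads of the library. Counts were tested in R 4.3.3 with edgeR 4.0.16 (TMM, filterByExpr at count 10 and total 15, robust quasi-likelihood F-test, Benjamini-Hochberg, threshold 0.05); the SE is the absolute log2 fold change over the square root of F. Each mutant was compared with WT of its tissue in a fit of 6 libraries, and other contrasts in fits of 12. Strand ratios used a pseudocount of 0.5 and exact two-sided permutation tests (scipy 1.17.1). The code was tested on simulated counts. DESeq2 1.42.0, other scalings and filters, a replicate block and leaving out each library were alternatives. Same-numbered libraries deviated together in CyrKO and WT cerebellum (correlations of 0.53, 0.37 and 0.13) and in CyrKO;Cdr1as671 and WT cerebellum (0.66, 0.46 and 0.51), which pairs them by the data only, and the block changed no call there.

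Members, lists and tests were chosen with earlier results of these data known. Named are all miR-219 and miR-338 strands, their antisense neighbours, list members past the threshold and the 5 miRNAs most alike each abundant strand. Groups come from sample titles.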

Additional observations from a re-analysis of the deposited data

How the results depend on the processing

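The number of members called depended on a setting other than the libraries used in 5 comparisons. For Cdr1as671 against WT it was 1 with the replicate block, where same-numbered libraries did not deviate together. For CyrKO;Cdr1as671 against WT it was 1 with DESeq2 and 1 in the authors' deposited table. For WT tissues it was 3 with library totals and 0 above a mean of 10 CPM, a filter that drops miR-219a-1-3p. For CyrKO tissues it was 3 with library totals, 1 with RLE, without the miR-7 guides, with no filter and with the replicate block, and 0 with DESeq2 and above 10 CPM. For 6 against 6 libraries it was 2 with no filter, 2 above 10 CPM and 3 with DESeq2. Leaving out 1 library gave 0 to 2 calls there, 1 to 2 for CyrKO tissues, and 0 to 1 for CyrKO against WT hippocampus, CyrKO;Cdr1as671 against CyrKO and CyrKO;Cdr1as671 against WT.

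Signs turned where values were near 0, and for miR-338 strands between tissues with library totals. For CyrKO against WT hippocampus, miR-338-3p was 0.0017 with totals and miR-219a-2-3p -0.0151 in a fit of 18. For CyrKO;Cdr1as671 against Cdr1as671, miR-338-3p was 0.0051 (RLE), 0.0120 (no miR-7), 0.0023 (no filter), 0.0164 (10 CPM), 0.0061 (DESeq2) and 0.00019 (replicate block), and miR-219a-5p -0.0203 with totals. For WT tissues, totals gave 0.4003 for miR-338-3p and 0.4306 for miR-338-5p. For CyrKO tissues, miR-338-3p was -0.0549 (RLE), -0.0409 (no miR-7), -0.0217 (no filter), -0.1287 (10 CPM), -0.0110 (DESeq2) and -0.0011 (replicate block), and miR-338-5p 0.3498 with totals. Leaving out 1 library each moved log2 values across 0, with these lowest and highest values. For CyrKO over WT, cerebellum: miR-338-5p -0.17 to 0.20. For CyrKO over WT, hippocampus: miR-219a-5p -0.48 to 0.048, miR-219a-2-3p -0.026 to 0.10, miR-338-3p -0.13 to 0.056. For CyrKO;Cdr1as671 over CyrKO, cerebellum: miR-338-5p -0.062 to 0.30. For CyrKO;Cdr1as671 over Cdr1as671, cerebellum: miR-219a-5p -0.16 to 0.60, miR-219a-2-3p -0.13 to 0.083, miR-338-3p -0.061 to 0.14. For interaction of both mutations, cerebellum: miR-219a-2-3p -0.038 to 0.29, miR-338-5p -0.32 to 0.062. For WT hippocampus over WT cerebellum: miR-219a-5p -0.093 to 0.48, miR-338-3p -0.28 to 0.032. For CyrKO hippocampus over CyrKO cerebellum: miR-219a-5p -0.093 to 0.53, miR-338-3p -0.14 to 0.11. For CyrKO effect, hippocampus minus cerebellum: miR-219a-5p -0.25 to 0.35, miR-338-3p -0.012 to 0.25, miR-338-5p -0.30 to 0.078. For Cyrano loss over both Cdr1as genotypes, cerebellum: miR-219a-5p -0.26 to 0.16, miR-338-5p -0.14 to 0.047. For CyrKO cerebellum minus WT cerebellum: miR-338-3p/miR-338-5p -0.35 to 0.12, miR-219a-5p/miR-219a-2-3p -0.37 to 0.22, miR-219a-2-3p/miR-338-3p -0.16 to 0.13. For Cdr1as671 cerebellum minus WT cerebellum: miR-338-3p/miR-338-5p -0.23 to 0.10, miR-219a-2-3p/miR-338-3p -0.025 to 0.18. For CyrKO;Cdr1as671 cerebellum minus WT cerebellum: miR-338-3p/miR-338-5p -0.096 to 0.24, miR-219a-2-3p/miR-338-3p -0.098 to 0.11. For CyrKO hippocampus minus WT hippocampus: miR-338-3p/miR-338-5p -0.12 to 0.20, miR-219a-5p/miR-219a-2-3p -0.45 to 0.13, miR-219a-2-3p/miR-338-3p -0.061 to 0.11. For WT hippocampus minus WT cerebellum: miR-338-3p/miR-338-5p -0.21 to 0.15, miR-219a-5p/miR-219a-2-3p -0.28 to 0.35. For CyrKO hippocampus minus CyrKO cerebellum: miR-338-3p/miR-338-5p -0.090 to 0.36, miR-219a-5p/miR-219a-2-3p -0.33 to 0.13. The 6-against-6 difference in the log2 ratio of miR-219a-5p to miR-219a-2-3p stayed between -1.46 and -1.18 on leaving out 1 library. The cause was not tested. Reads of rare strands limit what depth can show.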
